A study of Mus musculus with 4 samples.

Results

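The genes described here are 46 that carry out autophagy and mitophagy in mouse cells, out of 56832 gene symbols listed in the count files. They were taken by symbol from a fixed list that runs from the start of autophagy to the fusion of its vesicles with lysosomes, and all 46 symbols were found in each of the 4 libraries. The libraries form 1 group of microglia, the macrophages of the brain, which were grown in primary glial culture from C57BL/6 mice with no treatment named, labelled female, and sorted by flow cytometry after trypsin. The series was set up to place such cells beside cultured blood progenitors and beside co-cultures of those progenitors with glia; these other groups were not analysed here, so no contrast between conditions was made. The labels number the libraries 1 to 4 and do not say whether these came from separate cultures or animals. Each SD therefore measures the spread between libraries, which may be technical, and each p-value takes libraries as its units.

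In autophagy a flat membrane forms around cell contents, closes into a double-membraned autophagosome and delivers them to the lysosome. The ULK kinase complex starts the process, a lipid kinase complex built on Pik3c3 marks the membrane, and proteins related to ubiquitin, the LC3 and GABARAP proteins of the ATG8 family, are attached to lipids in that membrane by a conjugation machinery. Receptors bind cargo on one side and ATG8 proteins on the other; mitophagy is the form that removes mitochondria. In macrophages part of the same machinery coats phagosomes, which is called LC3-associated phagocytosis, and microglia use both routes in clearing debris.

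The libraries held 23212183 to 28469813 gene counts. All 8 markers fixed for microglia were at 1 CPM (a count scaled to the total of its library) or more in every library. So were 7 of 8 astrocyte markers and 5 of 7 mural and fibroblast markers, so this threshold alone does not set microglia apart. Among the 8 microglial markers Sall1, a transcription factor gene of microglia, was lowest at 9.26 TPM ± 0.662 (SD, n = 4). TPM corrects a count for the length of its gene as well as for depth, so that levels of different genes can be set side by side. The summed level of the 8 astrocyte markers was 226 to 379 TPM, against 19004 to 20487 TPM for the 8 microglial markers. Clu was the highest astrocyte marker at 210 TPM ± 44.9, with Gfap at 50.3 TPM ± 14.2 and S100b lowest at 1.02 TPM ± 0.649. Genes of other cell types were mixed in level. The oligodendrocyte list summed to 60.1 to 68.5 TPM, with Mbp at 43.9 TPM ± 2.11, Olig1 at 14.4 TPM ± 3.19 and Mog at 0 counts. The mural and fibroblast list summed to 97.1 to 155 TPM, with Acta2, smooth muscle actin, at 84.5 TPM ± 21.2. The endothelial list summed to 18.9 to 20.5 TPM, nearly all of it Flt1, with Tek at 0 counts, and the neuronal list to 2.83 to 5.58 TPM, with Map2 highest and Snap25 at 0 counts. The progenitor list summed to 45.5 to 55.7 TPM, nearly all of it Cd34 at 50.4 TPM ± 4.85, with Hoxa9 at 0 counts. Of the 3 monocyte genes, Ly6c2 and Plac8 had 0 counts in every library, while Ccr2 was detected at 0.997 TPM ± 0.272. Of the neutrophil markers, 4 of 5 had 0 counts in every library. A count of 0 limits a gene to at most 0.129 CPM per library, by counting error alone. The part of these other cell types in the members' levels was not tested. The sorted cells are a bulk sample, so fewer cells of a type and less RNA per cell cannot be told apart.

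All 46 members were detected. Each was at 1 CPM or more in every library, as were 20.6% of all listed genes, and the smallest count of a member in any library was 97, for Atg10. Mean levels ran from 7.54 TPM for Rb1cc1 to 726 TPM for Sqstm1, with 7 members at 100 TPM or more, 37 between 10 and 100 TPM and 2 under 10 TPM. The median member was at 34.3 TPM, beside 17.9 TPM for the genes tested below. Rb1cc1 was lowest when levels were computed on the merged exon length; on the longest transcript or on the annotated principal transcript Atg10 was lowest, at 9.06 and 8.13 TPM.

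**Figure D1:**
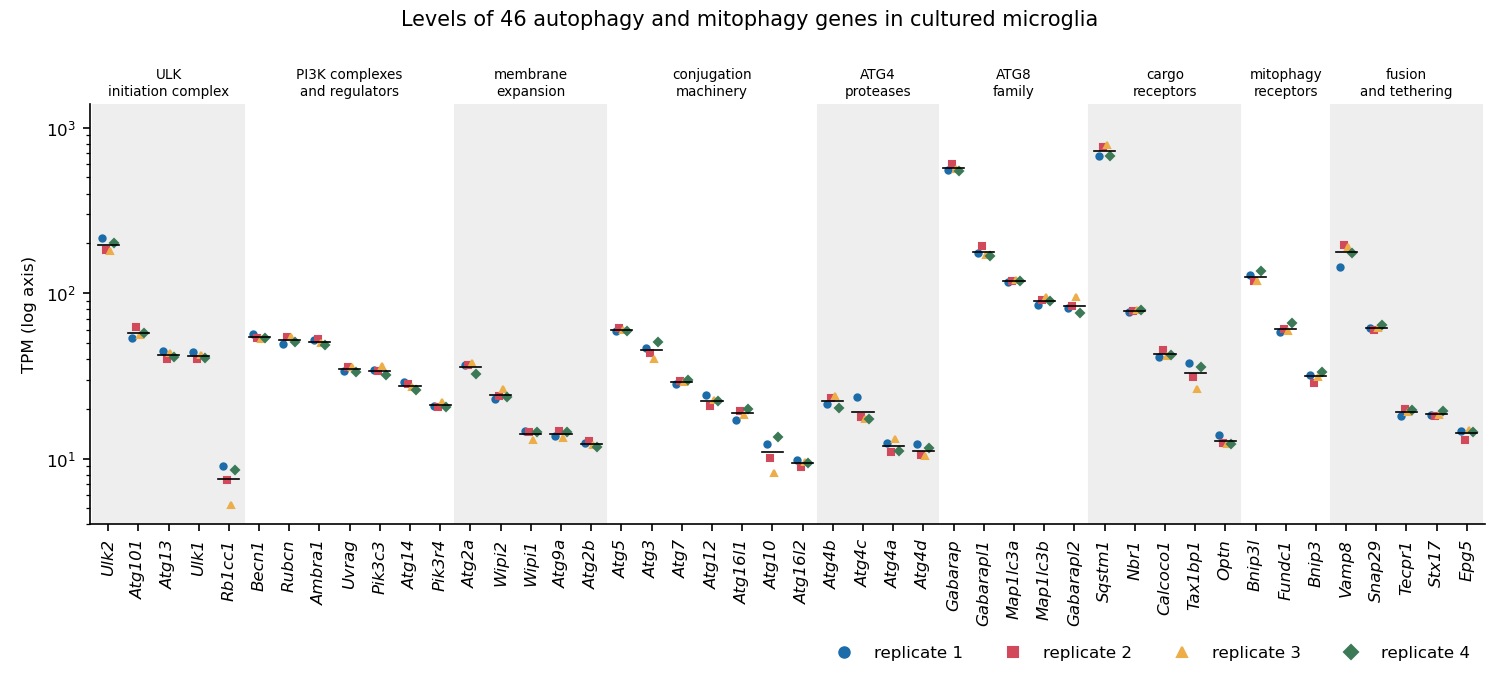
Level of each of the 46 genes in TPM (log axis), grouped by role and ordered within each group by mean; points are the 4 libraries and the bar is their mean. Sqstm1 (726 TPM) and Gabarap (570 TPM) stand above the rest, most genes lie between 10 and 100 TPM, and the points of a gene lie close together except for a few such as Rb1cc1.

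The ATG8 family is shown first by sequence, because its 5 genes encode related proteins that are made with a short tail, and the 4 ATG4 proteases cut that tail off to expose a glycine, which is then joined to lipid. The end of each coding sequence is given from the annotated principal transcript in GENCODE M21 (GRCm38), 5′ to 3′, with the codon of that glycine in capitals; the last codon in each is the stop.
Gabarap: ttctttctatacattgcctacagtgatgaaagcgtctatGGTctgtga
Gabarapl1: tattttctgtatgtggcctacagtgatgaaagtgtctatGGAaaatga
Gabarapl2: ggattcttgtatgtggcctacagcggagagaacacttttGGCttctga
Map1lc3a: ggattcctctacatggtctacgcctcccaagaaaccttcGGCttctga
Map1lc3b: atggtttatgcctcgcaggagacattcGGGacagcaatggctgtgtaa
In Gabarap (chr11:69994477-69994524), Gabarapl1 (chr6:129541120-129541167), Gabarapl2 (chr8:111952358-111952405) and Map1lc3a (chr2:155277590-155277637), 1 codon stands between the glycine codon and the stop. Map1lc3b (chr8:121596723-121596770) has 5 there. All 5 stretches lie on the plus strand. Across the whole coding sequence Map1lc3a and Map1lc3b were 76.5% identical and Gabarap and Gabarapl1 74.9% identical, while an LC3 gene and a GABARAP gene shared 53.4% to 60.6% of aligned bases. Of shared sequence, 13.8% of the 50-base words of Map1lc3b and 17.0% of those of Gabarapl2 also occur in transcripts of other genes, with the processed pseudogenes Gm6055 and Gm3724 sharing the most, so these levels are uncertain to that extent. Both pseudogenes had 0 to 5 counts per library. Gabarapl1 shares 18.6% of such words with other genes, most with 1700101I11Rik, and 28.3% of its exon bases lie opposite exons of other genes, so its level is uncertain as well.

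The ATG8 transcripts were led by Gabarap. It had 555, 607, 565 and 551 TPM in replicates 1 to 4, a mean of 570 TPM ± 25.7 (SD, n = 4), and lay above 98.2% of the tested genes. Gabarapl1 followed at 177 TPM ± 11.7, Map1lc3a at 118 TPM ± 1.68, Map1lc3b at 90.1 TPM ± 4.29 and Gabarapl2 at 83.9 TPM ± 7.99. Gabarap thus held 54.9% ± 0.637 of the summed TPM of the family, with 54.0% to 55.5% in single libraries, and the LC3 genes stood below both Gabarap and Gabarapl1 on merged exons, though not on the principal transcript, where Map1lc3b was at 182 TPM and Gabarapl1 lower. Map1lc3b and Gabarapl2 were close on merged exons only, where their ranges of 84.5 to 94.9 TPM and 76.3 to 95.1 TPM overlapped. On the longest transcript they were at 124 and 88.1 TPM, and on the principal transcript at 182 and 79.1 TPM.

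The place of Map1lc3b, the gene whose protein is the usual marker of autophagosomes, depended on the length used. Its merged exons are 7517 bases long and its principal transcript 2532. With merged exons it had 84.5, 91.1, 94.9 and 89.8 TPM in replicates 1 to 4, all below the 116, 118, 120 and 118 TPM of Map1lc3a, a Map1lc3b minus Map1lc3a difference of -0.39 ± 0.0485 on the log2(TPM + 1) scale. On the longest transcript the difference was 0.38 and on the principal transcript it was 1.08, so the order of the LC3 genes turned. Gabarap stayed above Map1lc3b under each length, by a log2 difference of 2.65 ± 0.0777 on merged exons, 2.24 on the longest transcript and 1.53 on the principal transcript.

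Differences of this kind were computed for 19 pairs of related members within each library. With 4 libraries the exact two-sided sign-flip permutation test cannot give less than p = 0.13 (0.13 after adjustment over the pairs), so no pair could pass 0.05. In 18 of the pairs the difference had 1 sign in 4 of 4 libraries; the exception was Atg4b minus Atg4c, at 0.22 ± 0.253, with the same sign in 3 of 4.

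**Figure D2:**
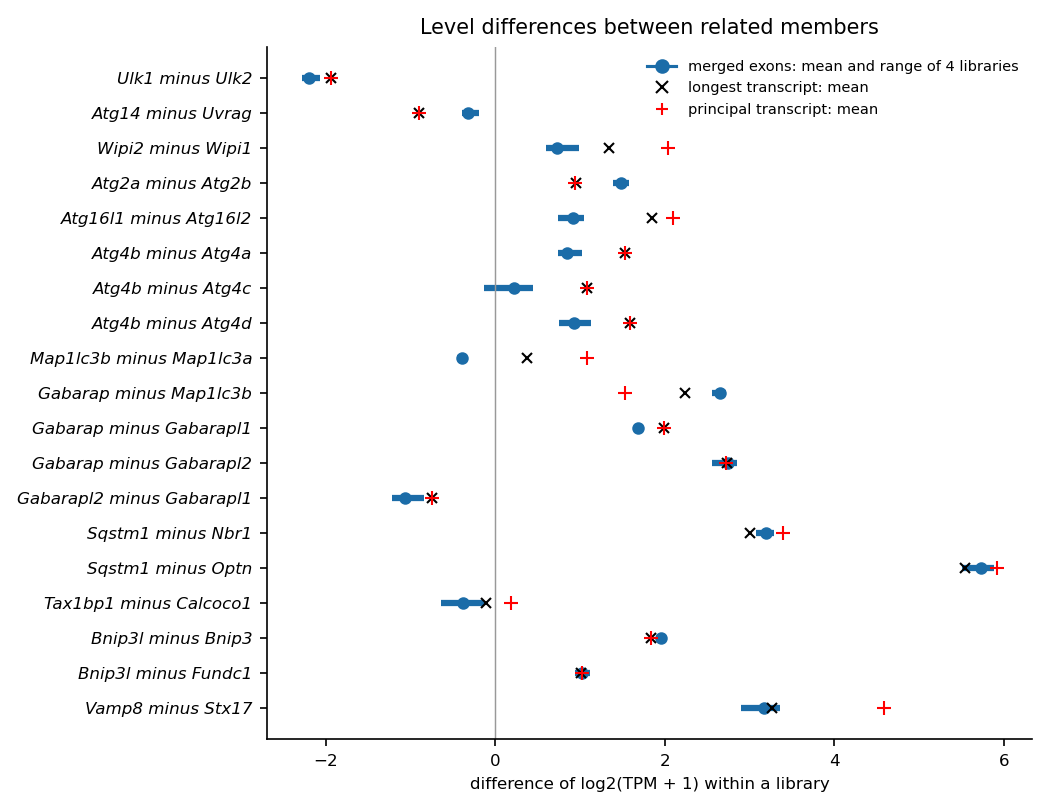
Difference of log2(TPM + 1) between 2 related genes within a library, first minus second, for 19 pairs; the circle is the mean over 4 libraries and the bar their range, with merged exon lengths. The cross and the plus give the mean with the longest and the principal transcript: for Map1lc3b minus Map1lc3a the sign turns (-0.39, 0.38 and 1.08), and for Ulk1 minus Ulk2 it does not (-2.19 and -1.93 with the principal transcript).

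Of the ULK initiation complex, Ulk2 was by far the most abundant gene. Ulk1 and Ulk2 encode related kinases that start autophagosome formation. Ulk1 had 43.8, 40.02, 42.0 and 40.7 TPM in replicates 1 to 4, against 217, 183, 179 and 200 TPM for Ulk2. The ranges did not overlap, and Ulk1 stood at 0.214 times the level of Ulk2, a log2 difference of -2.19 ± 0.104 (SD, n = 4). The ratio was 0.256 with either of the other lengths. Atg13 (42.4 TPM ± 2.27) and Atg101 (57.4 TPM ± 3.90), the adaptor and its stabilising partner, were near Ulk1. Rb1cc1, which encodes the scaffold FIP200, was at 7.54 TPM ± 1.68, and was the lowest member of the complex under each of the 3 lengths. Of the 50-base words of Rb1cc1, 11.97% also occur in transcripts of other genes, so its level is uncertain to that extent. The processed pseudogene Gm13961, which had 0 counts in each library, shares the most.

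Genes of the lipid kinase complexes lay within a narrow band. The 7 genes ran from 21.0 TPM ± 0.705 for Pik3r4, the regulatory subunit, to 54.1 TPM ± 1.80 for Becn1, which encodes Beclin, the core regulator; Pik3c3, the catalytic subunit, was at 34.0 TPM ± 1.79. Atg14 directs the kinase to new autophagosomes and Uvrag directs it to endosomes. Atg14 had 26.1 to 29.2 TPM and Uvrag 33.5 to 35.8 TPM, with no overlap and a difference of -0.32 ± 0.0840; on the principal transcript it was -0.89. Rubcn, an inhibitor of autophagosome maturation that is needed for LC3-associated phagocytosis, was at 52.1 TPM ± 2.64, and Ambra1, a Beclin partner, at 50.7 TPM ± 2.05. In the annotation 43.9% of the exon bases of Becn1 lie opposite exons of other genes on the other strand, so its level is uncertain if strands were not told apart or overlapping reads were dropped.

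Genes of membrane expansion were lower, with a median of 14.3 TPM ± 0.646. Atg2a and Atg2b encode lipid transfer proteins: Atg2a was at 35.98 TPM ± 2.32 and Atg2b at 12.2 TPM ± 0.434, a difference of 1.48 ± 0.0767. Wipi2 and Wipi1 encode proteins that read the lipid mark. Wipi2 was at 24.2 TPM ± 1.60 and Wipi1 at 14.1 TPM ± 0.831, a difference of 0.73 ± 0.170 that was 2.04 on the principal transcript, where Wipi2 came to 88.4 TPM. Atg9a, the scramblase gene, was at 14.0 TPM ± 0.627; exons of other genes on the same strand cover 31.8% of its exon bases, so its count may be incomplete.

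The conjugation genes had a median of 22.4 TPM ± 1.33. Atg7, the activating enzyme, was at 29.1 TPM ± 0.591, the transfer enzymes Atg3 and Atg10 at 45.0 TPM ± 4.51 and 11.02 TPM ± 2.36, and the parts of the final ligase at 59.6 TPM ± 1.24 for Atg5, 22.4 TPM ± 1.33 for Atg12 and 18.8 TPM ± 1.24 for Atg16l1. Atg16l1 had 17.2, 19.4, 18.5 and 20.01 TPM, above the 9.86, 8.92, 9.59 and 9.41 TPM of its relative Atg16l2 in each of replicates 1 to 4. The difference was 0.92 ± 0.137, and 2.09 on the principal transcript.

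The ATG4 proteases, which trim ATG8 proteins and remove them from lipid, lay between 11.2 and 22.2 TPM. Atg4b was at 22.2 TPM ± 1.63, Atg4c at 19.1 TPM ± 3.04, Atg4a at 11.8 TPM ± 1.04 and Atg4d at 11.2 TPM ± 0.897. Atg4b was above Atg4a in each of the 4 libraries, with a log2 difference of 0.85 ± 0.116, and likewise above Atg4d, with 0.93 ± 0.199. Atg4b held 34.6% ± 3.01 of the summed level and Atg4c 29.5% ± 3.04, which overlap; on the principal transcript Atg4b held 47.8% and Atg4c 21.8%. Of the 50-base words of Atg4a, 63.6% also occur in transcripts of Atg4a-ps, a retrocopy with 0 to 1 counts per library. Reads that aligned to several places were kept out of the gene counts, so the level of Atg4a is a low estimate to the extent that its reads matched that copy as well. Atg4d shares 18.2% of its 50-base words with transcripts of Kri1, which had 421 to 455 counts per library. In the annotation 19.3% of the exon bases of Atg4d lie opposite exons of other genes, so its level is uncertain too.

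Among cargo receptors Sqstm1, which encodes p62, stood far above the rest. It had 676, 769, 784 and 674 TPM in replicates 1 to 4, a mean of 726 TPM ± 58.9 (SD, n = 4), and lay above 98.7% of tested genes. Nbr1, a related receptor, was at 78.2 TPM ± 0.931, Calcoco1 at 42.6 TPM ± 1.92, Tax1bp1 at 32.7 TPM ± 4.99 and Optn, a receptor for ubiquitin-coated mitochondria and bacteria, at 12.7 TPM ± 0.791. Sqstm1 was 9.28 times as high as Nbr1 and 57.1 times as high as Optn, and held 81.3% ± 1.58 of the summed TPM of these 5 genes. The order of Tax1bp1 and Calcoco1 was not stable: the difference was -0.38 ± 0.241 on merged exons and 0.19 on the principal transcript. In the annotation 17.3% of the exon bases of Sqstm1 lie opposite exons of another gene.

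Of the 3 members that encode receptors in the mitochondrial outer membrane, Bnip3l was highest. Bnip3l had 128, 118, 119 and 135 TPM in replicates 1 to 4, Fundc1 had 58.3, 60.7, 59.3 and 65.8 TPM, and Bnip3 had 32.05, 28.6, 31.1 and 33.6 TPM. The 3 ranges did not overlap. Bnip3l held 57.5% ± 0.873, Fundc1 28.1% ± 1.09 and Bnip3 14.4% ± 0.459 of their sum. Of the 50-base words of Bnip3, 62.5% occur in transcripts of other genes, most with AC160336.1, which is not among the counted genes. Of those of Bnip3l, 25.1% occur in its processed pseudogene Bnip3l-ps, so the levels of Bnip3 and Bnip3l are uncertain.

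**Figure D3:**
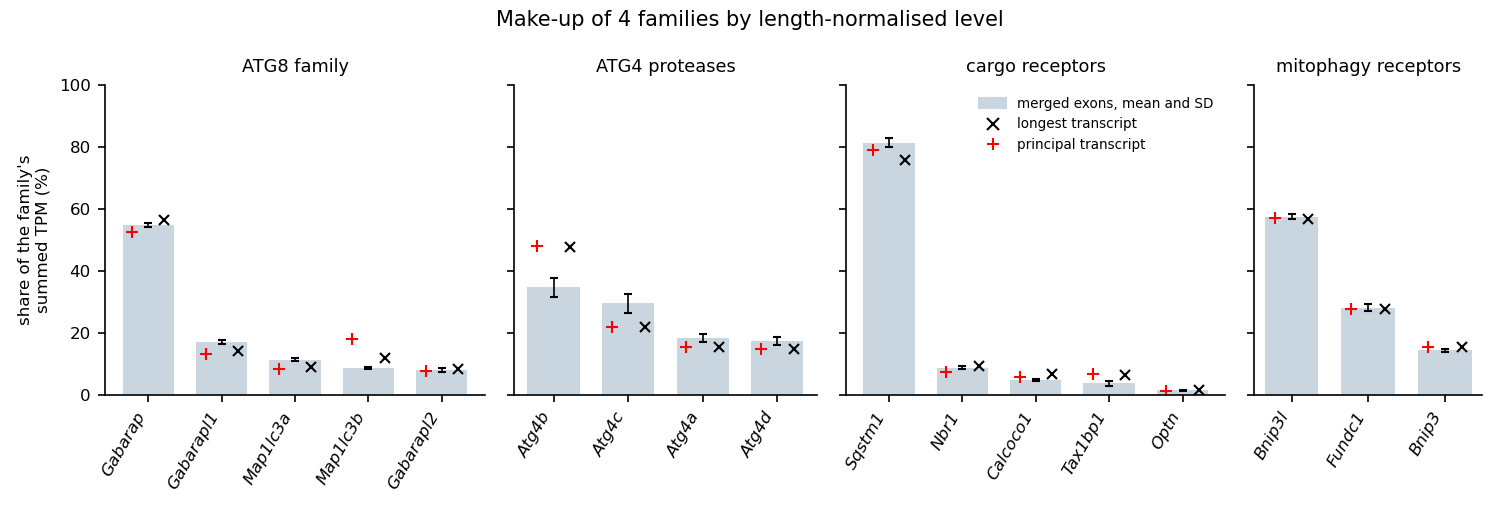
Share of each gene in the summed TPM of its family, for the ATG8 family, the ATG4 proteases, the cargo receptors and the mitophagy receptors; bars are means over 4 libraries with SD, on merged exon lengths. Crosses and plus signs give the share with the longest and the principal transcript. Gabarap (54.9%), Sqstm1 (81.3%) and Bnip3l (57.5%) led their families under each length, and Map1lc3b moved most within the ATG8 family, with 8.68% on merged exons and 18.05% on the principal transcript.

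The fusion genes were led by Vamp8, the lysosomal partner in the membrane fusion complex of autophagosomes. Vamp8 had 143, 196, 191 and 174 TPM in replicates 1 to 4 and Stx17, the autophagosomal partner, 18.3, 18.2, 18.4 and 19.4 TPM. The ranges lay far apart, with a difference of 3.17 ± 0.211, and 4.59 on the principal transcript. Snap29, the linker between them, was at 61.7 TPM ± 1.83. The tethering genes Tecpr1 (19.2 TPM ± 0.736) and Epg5 (14.2 TPM ± 0.910) were near Stx17.

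The remaining comparison was between libraries. For each gene an edgeR deviance test asked whether the libraries differed more than for genes of like abundance, with p-values adjusted by the Benjamini-Hochberg method over 12879 genes. Of the 46 members, all tested, 1 passed at an adjusted p under 0.05, beside 1.11% of all genes tested, and 3 had an unadjusted p under 0.05, beside 6.79% of all genes tested; these shares are near each other. The coefficient of variation between libraries was under 10% for 40 of 46 members (87.0%), beside 54.9% of all genes tested, and its median was 5.86% for members and 8.99% for all; the members are also more abundant than the tested genes in general. Nbr1 varied least, with 156, 158, 159 and 159.9 CPM after TMM scaling (edgeR's correction for library composition) and a coefficient of variation of 0.972%. Map1lc3a, at 40.5 to 41.5 CPM, was next.

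Rb1cc1 was the member that passed. It had 39.1, 32.5, 22.4 and 36.9 TMM-scaled CPM in replicates 1 to 4 (edgeR adjusted p = 0.029), with counts of 1040, 761, 526 and 1053. Replicate 3 was lowest and the highest library was 1.75 times as high as it. Without replicate 3 the adjusted p was 0.99998. Without replicate 4, which leaves both the highest and the lowest library in place, it was 0.075. Tax1bp1 showed the same order, with 111, 91.8, 77.4 and 106 CPM, but did not pass (edgeR adjusted p = 0.16). Vamp8 had 97.8, 134, 129 and 119 CPM and was lowest in replicate 1; it did not pass either (edgeR adjusted p = 0.33).

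**Figure D4:**
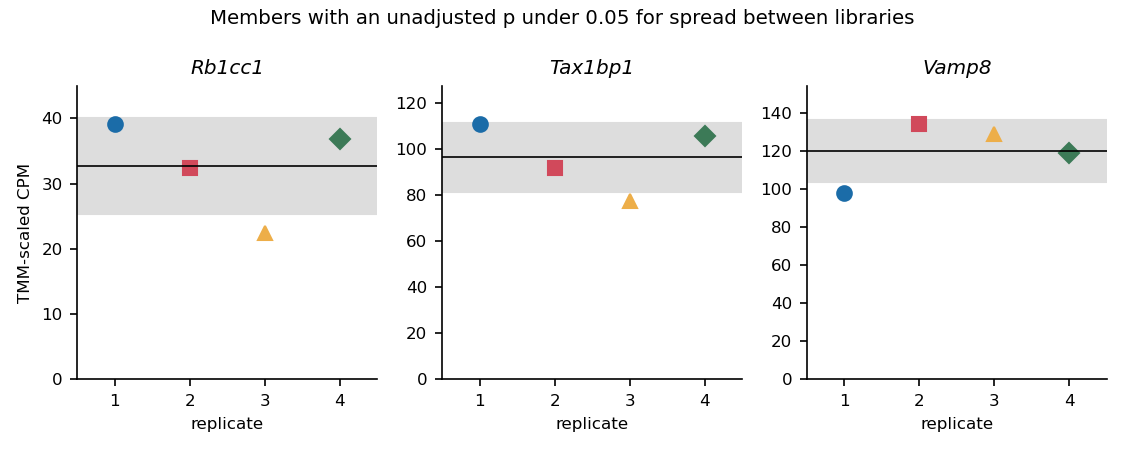
TMM-scaled CPM of Rb1cc1, Tax1bp1 and Vamp8 in each library; the line is the mean over 4 libraries and the grey band 1 SD on each side. Rb1cc1 and Tax1bp1 were lowest in replicate 3 (22.4 and 77.4 CPM) and Vamp8 in replicate 1 (97.8 CPM).

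Deviations of a gene between libraries also varied with its base composition. The longest transcripts of Rb1cc1 and Tax1bp1 have 39.1% and 39.6% GC, where the median member had 50.4%. In replicate 3, Rb1cc1 lay 0.50 below its mean over the libraries on the log2 scale, as a deviation of -0.50, and Tax1bp1 had -0.30; in replicate 1 they had 0.28 and 0.21. Other AT-rich members were mixed. Atg10, at 40.3% GC, had -0.34 in replicate 3 and 0.15 in replicate 1, and Atg3, at 40.1% GC, had -0.17 and 0.05. Fundc1, the lowest in GC at 38.8%, had -0.05 in replicate 3 and -0.06 in replicate 1. Atg4a, at 42.2% GC, had 0.12 in replicate 3. The median of all genes near 39.2% GC was -0.11 in replicate 3. The 16 members of lowest GC (38.8% to 45.7%) had a median log2 deviation of 0.04, -0.05, -0.04 and 0.08 in replicates 1 to 4, and the 15 of highest GC (52.2% to 63.1%) had -0.03, 0.05, -0.01 and -0.03; these bins were set after the values were seen. Across members, Spearman's rho of GC content with the deviation was -0.35, 0.49, 0.30 and -0.35 in replicates 1 to 4, and across 12503 tested genes -0.28, 0.35, 0.26 and -0.31. Genes within a library share its preparation and depth and the 4 deviations of a gene sum to 0, so these are descriptions. When GC content and gene length were fitted in each library, the adjusted p of Rb1cc1 was 0.35 (edgeR), and 0 of 46 members passed, beside 0.856% of the 12503 genes tested that way. The highest library of Rb1cc1 was then 1.47 times as high as the lowest, against 1.75 times before the fit, and replicate 3 was still lowest, at a log2 deviation of -0.38. What part base composition has in the spread of Rb1cc1 was not tested further. The share of mitochondrially encoded counts was also lowest in replicate 3, at 0.900%, against 1.07% to 1.24% in the others, and its part in the result was not tested.

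**Figure D5:**
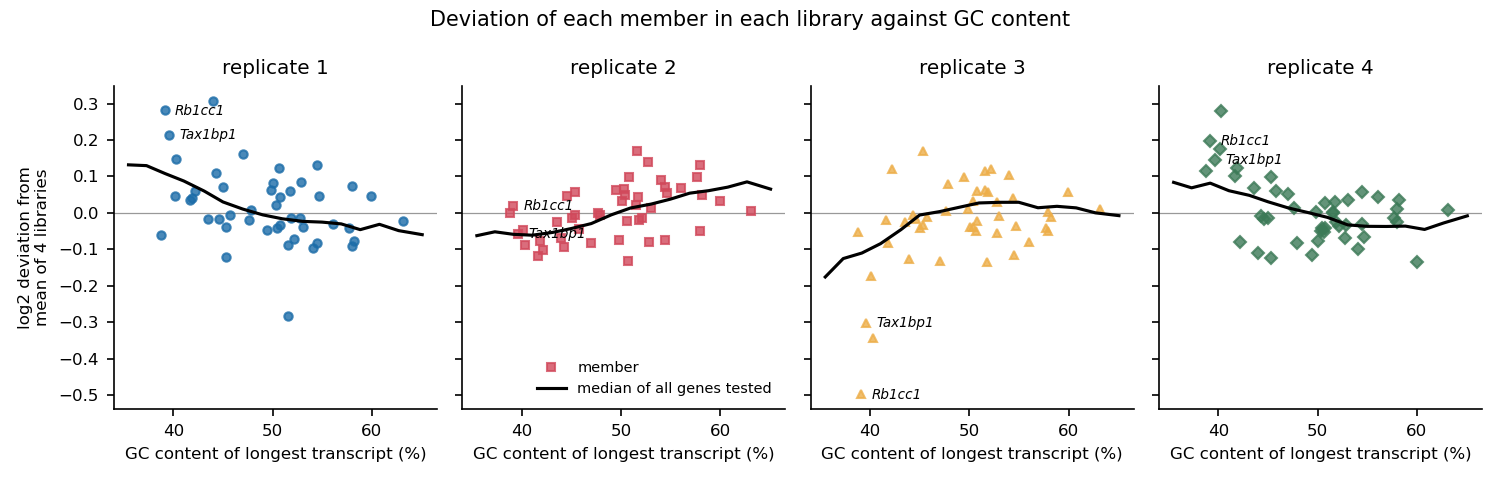
Log2 deviation of each of the 46 members from its mean over the 4 libraries, against the GC content of its longest transcript, in each library; the black line is the median of all genes tested in bins of GC content. At low GC content the line lies above 0 in replicates 1 and 4 and below it in replicates 2 and 3, and Rb1cc1 is the lowest point of replicate 3 (-0.50).

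The lower value of Vamp8 in replicate 1 went with other features of that library. The summed level of 15 immediate-early genes, which respond within a short time to stimulation or to the detachment of cells, was 2624 TPM in replicate 1, against 1463 to 1857 TPM in the others. The summed astrocyte markers were at 226 TPM there, against 303 to 379 TPM. Their part in the result was not tested.

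Beyond these members, 44 other genes of the pathway were listed, of which 43 were tested and 0 passed the spread test (edgeR; 1 at an unadjusted p under 0.05, Sec62, a receptor for autophagy of the endoplasmic reticulum, with adjusted p = 0.23), where 1.11% of all genes tested passed and 6.79% had such an unadjusted p; a count of 0 among 43 lies near that background. DESeq2 marked 0 of them as dispersion outliers. All but Atg9b, at 0.158 TPM ± 0.0989, were at 1 CPM or more in every library. Pink1, a kinase that marks damaged mitochondria for mitophagy, was at 241 TPM ± 8.45, the highest of its list.

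The oxidase that LC3-associated phagocytosis needs was abundant: its 6 listed genes had a median of 448 TPM ± 27.0, with Cyba, a membrane subunit, highest at 1746 TPM ± 161. Among fusion genes outside the 46, Rab7, the small GTPase of late endosomes, was highest at 608 TPM ± 7.98 and Tecpr2 lowest at 8.72 TPM ± 0.335. Among other receptors Rtn3, a receptor for tubules of the endoplasmic reticulum, was highest at 236 TPM ± 8.63 and Ccpg1 lowest at 5.46 TPM ± 0.821. Wdr45b, a relative of the Wipi genes, was highest of the other expansion genes at 69.7 TPM ± 4.19.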

How the data were processed

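RNA sequencing was done on 4 libraries of cultured microglia. For each library the authors deposited raw counts of reads by gene symbol. HTSeq 0.11.2, SAMtools 1.16.1, STAR 2.7.10a and the build mm39 (GRCm39) are named per the submitters' processing notes. Strand setting, counting mode and annotation: not given in the sources used here, apart from the words "strict" and "no" in the names of the deposited files, which carry no key; genes that overlap others may have lost or gained reads accordingly. Besides 56832 genes, each file holds 5 lines of unassigned reads. These held 11.8% ± 0.159 (SD, n = 4) of reads, of which reads aligned to several places were 2.41% and ambiguous reads 2.21% of all reads, and were left out. Columns of no sample numbered 0.

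TPM was computed here from the deposited counts and merged exon lengths in GENCODE M21 (GRCm38), matched by symbol (89.1% of symbols, 98.8% of counts, all 46 members). That build is not the authors', so the annotation supplied lengths, GC content, overlaps and transcript sequences; the coordinates printed are of GRCm38 and were not joined to the counts. Exons over all isoforms overstate transcript length, so levels were repeated with the longest and with the APPRIS principal transcript. The libraries were compared in edgeR 4.0.16 (R 4.3.3): TMM scaling, filterByExpr, 1 mean per gene, trended dispersion, and the deviance set against chi-square on 3 degrees of freedom, adjusted over all genes tested at a threshold of 0.05. In simulated counts for this comparison over 12732 genes, 96.0% of genes at 10 CPM or more changed 2-fold in 1 library and 35.0% of those changed 1.5-fold were recovered. DESeq2 1.42.0 gave dispersion outliers as an alternative. Pairs were compared by exact sign-flip permutation tests on log2(TPM + 1). A count of 0 allows 3 counts, counting error only.

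Every member may be named; library values are given for members with an unadjusted p under 0.05, the extremes of each role list and the fixed pairs. Of the other pathway genes the extremes of each list are named, except some that are not reported here. The members and lists were chosen with earlier results of these data known. The correction for GC content and length, the principal transcript and the comparison of shared 50-base words were added after the data were seen.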

Additional observations from a re-analysis of the deposited data

Results flagged for a closer look

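In 91 sets of 4 library values, 1 library stood apart from the others by Dixon's criterion for 4 values (the gap to the nearest value against the whole range) in 8, all of them levels of single members in TMM-scaled CPM; chance alone gives about 1 in 20. Libraries that lay above the others were replicate 3 for Pik3r4 (62.2 CPM, against 58.6 to 59.1), replicate 2 for Atg5 (42.7, against 40.9 in each of the others) and for Gabarap (331, against 301 to 305), replicate 1 for Atg4c (23.4, against 17.0 to 17.7) and for Optn (15.4, against 13.5 to 13.8), and replicate 4 for Stx17 (34.1, against 31.9 to 32.1). Libraries that lay below the others were replicate 3 for Wipi1 (16.6 CPM, against 18.8 to 19.2) and replicate 4 for Atg2a (74.2, against 83.3 to 84.9). None of these 8 genes had an unadjusted p under 0.05 in the edgeR spread test.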

How the results depend on the processing

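The count of members past the spread test was 1 with TMM or DESeq2 size factors, with either other abundance filter and with a common dispersion. It was 0 with the correction for GC content and length and 0 among DESeq2 dispersion outliers. With 1 library left out it was 1 without replicate 1 or replicate 2, and 0 without replicate 3 or replicate 4. All of these runs had fewer libraries and so less power, and the cause of the change was not tested. The 0 other pathway genes past the test did not change under the alternatives run. The count of members at 1 CPM or more in every library stayed at 46 with any 1 library left out. It was also 46 with a threshold of 0.5 CPM or 1 TPM, and 45 with a threshold of 5 CPM. The median TPM of members, averaged over libraries, was 34.96 with merged exons, 38.99 with the longest transcript, 37.9 with the principal transcript and, without length, 55.3 CPM. The share of Gabarap in its family was 56.4% with the longest transcript, 52.5% with the principal transcript and 43.4% without length. In the same order that of Atg4b was 47.8%, 47.8% and 51.0%, and that of Sqstm1 75.8%, 79.0% and 67.7%. Bnip3l came to 69.2% without length. Of 19 pair differences 17 kept their direction in all 9 alternatives. Map1lc3b minus Map1lc3a turned to 0.38 with the longest transcript, 1.08 with the principal transcript and 2.25 without length, and Tax1bp1 minus Calcoco1 to 0.19 with the principal transcript and 0.40 without length; these follow from the length used. No paired analysis was possible because there is 1 group. Depth limits the small differences of Atg10 and Atg4a most, with the lowest counts.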

Other observations

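The hexamer CACGTG, the core of the sites bound by TFEB and related factors (read the same on both strands), was searched in RefSeq promoter windows around the gene start (GRCm38.p6). Of 38 members with a window 6 held it (15.8%), Atg14, Rubcn, Atg3, Atg5, Atg7 and Bnip3, beside 8.09% of 27025 genes with a window. The longer CLEAR-type palindrome that contains it was in 0 of 38 members and in 0.370% of genes. A match in these windows is a description of letters only, and no test was made.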
